A study of Mus musculus with 4 samples.

Results

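Secreted ligands of the VEGF, angiopoietin and angiopoietin-like families were followed in single-cell RNA sequencing of CSF1R-EGFP+ cells of the mouse heart. The 8 genes were Vegfa, Vegfb, Vegfc, Pgf, Angpt2, Angptl2, Angptl4 and Angptl6, chosen by name from the 31053 genes counted, and all 8 were found in the gene lists of the files. There were 4 libraries in 2 groups, both from mice aged 12 to 16 weeks. Hearts without surgery gave the baseline sample, in which 3 hearts were pooled into 1 library. Hearts taken 7 days after left coronary artery ligation gave 3 infarct libraries, each from its own heart. In both groups, cells were sorted as positive for EGFP, which is driven by the Csf1r promoter, and as negative for the neutrophil antigen Ly6G. The reporter marks monocytes and macrophages, but it does not limit the sample to them, and the files also held B cells, dendritic cells, fibroblasts and endothelial cells. The cell filter left 10238 cells at baseline, with a median of 6398.5 unique molecular identifiers (UMIs), and between 10117 and 10782 cells per infarct, with medians from 8469.5 to 8556.5 UMIs. The labels call the cells macrophages, and 70.7% of baseline cells and 80.1% to 86.7% of infarct cells were gated as C1q-positive macrophages. Between 26 and 34 cell barcodes were shared by any pair of libraries, at most 0.332% of the cells.

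VEGF-A is the main growth factor for endothelial cells and acts chiefly, but not only, through the receptor KDR. VEGF-B and placental growth factor (Pgf) bind FLT1, and VEGF-C is best known for lymphatic growth through FLT4. Angiopoietin-2 acts on the receptor TEK of endothelial cells and loosens vessel walls, which sensitises them to VEGF. The angiopoietin-like proteins do not bind TEK: ANGPTL4 inhibits lipoprotein lipase and is a target of both PPAR factors and hypoxia, ANGPTL2 is linked to inflammation, and ANGPTL6 to metabolism and vessel growth. In the infarcted heart, macrophages are among the known sources of VEGF-A during repair.

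The ligand genes lie on separate chromosomes or far apart on the same one (GENCODE vM21, GRCm38, which is mm10). Vegfa spans chr17:46016993-46032369 and Angptl4 chr17:33773750-33781830, both on the minus strand. Vegfb lies at chr19:6982473-6987651 (minus), Vegfc at chr8:54077606-54187096 (plus), Angpt2 at chr8:18690263-18741562 (minus) and Pgf at chr12:85166635-85177790 (minus). Angptl2 lies at chr2:33216069-33247717 (plus) and Angptl6 at chr9:20873808-20879727 (minus). Promoters were listed by RefSeq (GRCm38.p6) for 6 of the 8 genes, and those of Angpt2 and Angptl4 were not matched. The promoters of Vegfa and Vegfb are shown because these ligands had the highest counts and differed in opposite directions in some myeloid gates. Each sequence is the 250 bases before the first listed start, on the minus strand, with the GC box GGGCGG (either strand) in capitals.
Vegfa, chr17:46032378-46032627: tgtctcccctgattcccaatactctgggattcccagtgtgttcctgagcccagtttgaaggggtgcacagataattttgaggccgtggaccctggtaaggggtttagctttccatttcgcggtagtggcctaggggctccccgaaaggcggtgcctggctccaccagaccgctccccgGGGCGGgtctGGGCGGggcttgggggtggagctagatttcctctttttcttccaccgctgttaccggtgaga
Vegfb, chr19:6987652-6987901: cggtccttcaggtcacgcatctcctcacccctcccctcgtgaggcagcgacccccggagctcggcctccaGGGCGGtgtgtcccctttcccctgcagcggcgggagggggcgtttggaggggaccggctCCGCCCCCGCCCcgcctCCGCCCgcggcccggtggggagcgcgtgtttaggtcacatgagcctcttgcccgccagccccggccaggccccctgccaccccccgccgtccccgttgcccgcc
The Vegfa window held 2 GC boxes and 59.2% G and C, and the Vegfb window held 4 GC boxes and 76.4% G and C. Of 32851 promoters of the same length, 32.7% held this motif. The hypoxia-factor core ACGTG was in neither window, in 16.6% of all promoters, and the core GCGTG was found 2 times in the Vegfb window, 0 times in that of Vegfa and in 28.2% of all promoters, both strands being searched. The window of the second listed Vegfa start, chr17:46025164-46025413, held 1 ACGTG and 1 GCGTG. These are matches of letters only.

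The first question was how much of each ligand the whole sorted population carried with and without infarction. Levels are in CPM, the UMIs of a library's summed cells scaled to a common total outside mitochondrial genes, and baseline values carry an exact 95% Poisson interval, which covers counting error only. Vegfa was at 4.98 CPM at baseline (interval 4.47 to 5.55, 337 UMIs) and at 17.7, 13.3 and 19.6 CPM in infarct replicates 1, 2 and 3. All 3 infarct libraries were thus well above baseline, and their mean of 16.9 ± 3.23 CPM (SD, n = 3) was 3.39 times the baseline value. Vegfb was at 23.2 CPM at baseline (interval 22.1 to 24.4) and at 24.6, 33.3 and 32.2 CPM in the infarcts, so that infarct replicate 1 lay close to the upper bound of the baseline interval. Among the angiopoietin-like ligands, Angptl4 had the largest ratio of the 8 genes, 0.858 CPM at baseline (interval 0.651 to 1.11) against 4.40 ± 0.631 CPM, 5.13 times higher. Angptl2 was at 1.24 CPM at baseline (interval 0.991 to 1.54) and at 4.09, 3.85 and 5.74 CPM in the infarcts, 3.67 times higher on average. Angpt2 was at 0.666 CPM (interval 0.485 to 0.891) against 1.66 ± 0.205 CPM. Pgf was rare throughout, with 13 UMIs in the baseline library and 40, 60 and 50 UMIs in the infarct libraries, or 0.192 CPM (interval 0.102 to 0.329) against 0.559 ± 0.0963 CPM.

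Vegfc went the other way. It was at 4.33 CPM at baseline (interval 3.85 to 4.86, 293 UMIs) and at 0.464, 0.831 and 0.691 CPM in infarct replicates 1, 2 and 3, so that baseline was 6.55 times the infarct mean. Angptl6 was at 2.75 CPM at baseline (interval 2.37 to 3.18) and at 2.13, 2.34 and 2.38 CPM in the infarcts. All infarct libraries were above baseline for 6 of the 8 ligands and below it for 2. Over the 13180 genes with at least 100 UMIs, all 3 infarct libraries were above baseline for 26.8% and below it for 57.9%. The median log2 ratio of infarct to baseline was 1.43 over the ligands and -0.25 over these genes. Several of the ligands had been reported by the study as high in a macrophage cluster of these data. The ligands were chosen with such results known, so the values over all genes are no independent test of them. TMM scaling raised the median of all genes by 0.28, under which the log2 ratio was 0.65 for Vegfb and 0.01 for Angptl6, so that no direction can be given for Angptl6. In macrophages alone, the log2 ratio of Vegfb was 0.12, with 2 of 3 infarct libraries above baseline. With 1 baseline library there is no replicate error and no test.

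**Figure D1:**
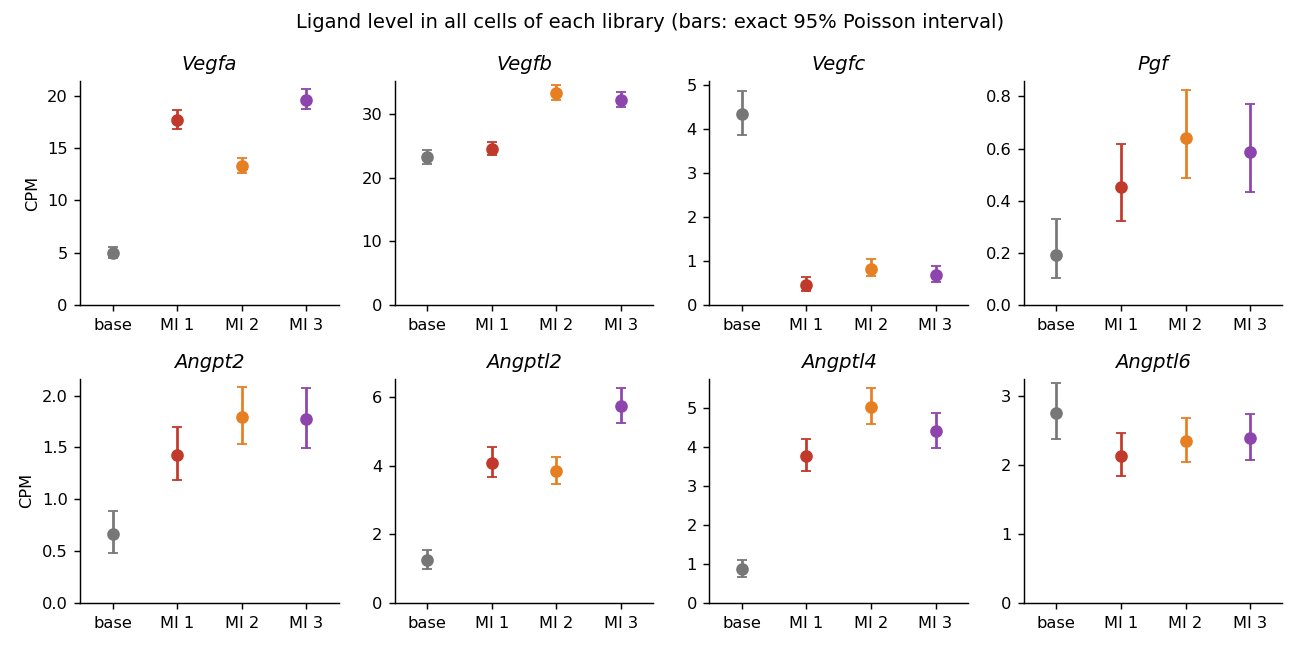
Level of each ligand (CPM, y axis from 0) in the summed cells of the baseline library (base) and the infarct libraries (MI 1 to MI 3); points are libraries and bars exact 95% Poisson intervals. Vegfa, Angpt2, Angptl2 and Angptl4 lie higher in all 3 infarct libraries, and Vegfc lies at 4.33 CPM at baseline and under 1 CPM in the infarcts.

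Most cells carried no UMI of any given ligand. At least 1 Vegfa UMI was found in 1.56% of baseline cells, and the share was 8.79%, 5.57% and 8.60% in the 3 infarcts. With every cell thinned to 2000 UMIs and shallower cells left out (1247 at baseline and 847, 672 and 1044 in the infarcts), these shares were 0.556% against 3.01%, 2.08% and 3.36%. Vegfa counts were uneven between cells: the 15 baseline cells with at least 5 UMIs held 36.5% of all its baseline UMIs, and 34, 48 and 48 infarct cells held 13.5%, 25.9% and 21.4%. Vegfb was spread over more cells with fewer UMIs each, in 12.2% of baseline cells and 16.6%, 22.5% and 20.8% of infarct cells, of which at most 10 per library had 5 UMIs or more. Single cells weighed on the rarer ligands: the highest count in a cell was 27 UMIs for Angptl4 in infarct replicate 2, and for Pgf 2 cells held 36% of its UMIs in infarct replicate 3.

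To place the ligands, cells were gated by marker genes, none of which is a ligand studied here. Granulocytes (S100a8, S100a9, Retnlg and others) and monocytes (Ly6c2, Plac8, Chil3 and others) had low C1q, and macrophage gates required C1q. Among macrophages, Spp1-high cells were gated by Spp1, Gpnmb, Fabp5 and Trem2, Saa3-high cells by Saa3, Arg1, Marco and Slpi, and resident cells by Lyve1, Cd163, Timd4, Folr2, Cbr2 and Retnla. Between 3 and 5 of a gate's own markers were among its 10 leading genes in the infarct libraries, and none of these 5 gates had a gene of another list there. Cells were gated on these markers, so their place among the leading genes was set in advance and is no check of the gates. Infarct Saa3-high cells also carried the 6 resident markers, each above 10 CPM, at a summed 826 CPM. The sum was 2559 CPM in infarct resident cells and 69.3 CPM in other infarct macrophages. Spp1-high cells numbered 950, 1165 and 852 in infarct replicates 1, 2 and 3 and 56 at baseline. Saa3-high cells numbered 899, 73 and 633, fewest in replicate 2, and 10 at baseline. There were 782, 634 and 410 infarct monocytes (1138 at baseline), 72, 42 and 73 infarct granulocytes (53 at baseline), which are the few left after Ly6G+ cells had been removed, and 175, 116 and 185 infarct resident cells against 3400 at baseline. Other macrophages, positive for C1q and in no narrower gate, were the largest group, with 5941, 7718 and 6959 infarct cells and 3617 baseline cells.

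Within the infarct libraries, each gate was compared with all other cells of the same heart. Vegfa was highest in granulocytes, in which it reached 46.2, 135 and 139 CPM in infarct replicates 1, 2 and 3. The other cells of the same hearts held 16.7 ± 3.14 CPM, and the log2 fold change was 2.27 ± 0.31 (SE, adjusted p = 7.6e-12), from 67 UMIs in the gate. In this comparison edgeR took the spread wholly from all genes, so that the p does not reflect how far Vegfa itself varied between the 3 hearts. In Saa3-high macrophages Vegfa was at 53.5, 52.6 and 35.1 CPM against 15.4 ± 2.78 CPM in other cells (log2 fold change 1.45 ± 0.20, adjusted p = 0.0003). In monocytes it was at 30.1, 39.6 and 31.3 CPM against 15.9 ± 3.71 CPM (log2 fold change 1.16 ± 0.19, adjusted p = 0.0017). These 3 gates were higher than the rest in 3 of 3 hearts, and their calls held under all 11 alternatives. Spp1-high macrophages, at 12.3, 11.7 and 16.3 CPM, did not pass the test (log2 fold change -0.26 ± 0.09, adjusted p = 0.051). Resident macrophages had the lowest mean of the myeloid gates other than dendritic cells, at 11.7, 3.27 and 7.10 CPM from 31 UMIs, with a log2 fold change of -1.30 ± 0.27 (adjusted p = 0.0012), which no longer passed when infarct replicate 3 was left out (adjusted p = 0.026), with no replicate block (adjusted p = 0.051) and in cells thinned to 2000 UMIs (adjusted p = 0.033). In the order of mean levels, granulocytes, Saa3-high macrophages, transitional cells (monocyte markers together with C1q, 35.3 ± 11.2 CPM) and monocytes overlapped with their neighbours, and the step from monocytes to Spp1-high macrophages (13.4 ± 2.50 CPM) did not.

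Vegfb showed nearly the opposite order. It was at 40.4, 44.6 and 56.2 CPM in Spp1-high macrophages against 27.7 ± 4.78 CPM in other cells (log2 fold change 0.87 ± 0.09, adjusted p = 6.4e-05). It was lower in Saa3-high macrophages, at 7.79, 7.31 and 10.9 CPM (log2 fold change -1.82 ± 0.17, adjusted p = 2.1e-05). Monocytes held 4.78, 2.06 and 6.13 CPM (log2 fold change -2.83 ± 0.25, adjusted p = 7.8e-05). Every infarct library thus had the same order of these 3 gates. Granulocytes held 2 UMIs of Vegfb in all, both in infarct replicate 3 (log2 fold change -3.62 ± 0.72, adjusted p = 8.4e-06, or 0.012 by the DESeq2 Wald test). Resident macrophages, at 19.7, 40.3 and 35.5 CPM, did not pass the test (log2 fold change -0.06 ± 0.16, adjusted p = 0.88).

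Among the myeloid gates, the angiopoietin and the angiopoietin-like ligands Angptl2 and Angptl4 were highest in Spp1-high macrophages. Angptl4 was at 11.4, 10.3 and 13.2 CPM there against 3.41 ± 0.749 CPM in other cells (log2 fold change 1.87 ± 0.16, adjusted p = 2.4e-05). Angpt2 was at 4.10, 3.38 and 3.71 CPM against 1.37 ± 0.277 CPM (log2 fold change 1.55 ± 0.22, adjusted p = 0.00043), although the difference did not pass with cells thinned to 2000 UMIs (adjusted p = 0.59). Angptl2 was at 7.93, 6.68 and 11.4 CPM against 4.00 ± 0.898 CPM (log2 fold change 1.21 ± 0.12, adjusted p = 5.1e-05). For all 3, the lowest Spp1-high value lay above the highest value in other macrophages. Infarct cells in no gate overlapped with Spp1-high macrophages for 2 of them. They held Angpt2 at 3.71 ± 2.31 CPM, with up to 5.52 CPM in a library, and Angptl2 at 6.53 ± 1.89 CPM, with up to 8.04 CPM. Monocytes were nearly without Angptl4 (7 UMIs, 0.468 ± 0.148 CPM, log2 fold change -3.18 ± 0.35, adjusted p = 0.00023, or 0.014 in thinned cells) and Angptl2 (8 UMIs, 0.541 ± 0.297 CPM, log2 fold change -3.01 ± 0.38, adjusted p = 0.00044). Saa3-high macrophages had less Angptl4 than other cells (15 UMIs, log2 fold change -1.98 ± 0.40, adjusted p = 0.0035), which did not pass without infarct replicate 3 (adjusted p = 0.074) or in thinned cells (adjusted p = 0.25). Their lower Angpt2 rested on 4 UMIs (adjusted p = 0.0095) and passed under 3 of 11 alternatives. Granulocytes held no UMI of Angpt2, Angptl2, Angptl4 or Pgf among 716028 UMIs, which allows up to 4.19 CPM of each by the limit of 3 counts over the group. Resident macrophages had 3 UMIs of Angptl2 (log2 fold change -2.80 ± 0.65, adjusted p = 0.0036), a call kept under 5 of 11 alternatives.

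In all, 5 of the 8 ligands passed the test in Spp1-high macrophages, 4 higher (Vegfb, Angpt2, Angptl2 and Angptl4) and 1 lower (Vegfc). Of the 13237 genes tested there, 24.7% passed, 12.2% higher and 12.5% lower. In Saa3-high macrophages 1 was higher and 3 were lower, 4 of 8, beside 17.7% of all genes, 9.55% higher and 8.12% lower. In monocytes 1 was higher and 3 were lower, 4 of 8, beside 28.8% of all genes, 13.9% higher and 14.9% lower. In granulocytes 1 was higher and 1 lower, beside 11.5% of all genes, 4.25% higher and 7.24% lower. In resident macrophages 2 were lower, beside 9.17% of all genes, 4.3% higher and 4.87% lower. The median log2 fold change of the ligands was 0.64 in Spp1-high macrophages, -1.15 in Saa3-high macrophages and -1.04 in monocytes, beside medians over all genes of -0.02, -0.06 and -0.07. Here too, the ligands were chosen with earlier results of these data known, so the shares over all genes are no independent test.

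**Figure D2:**
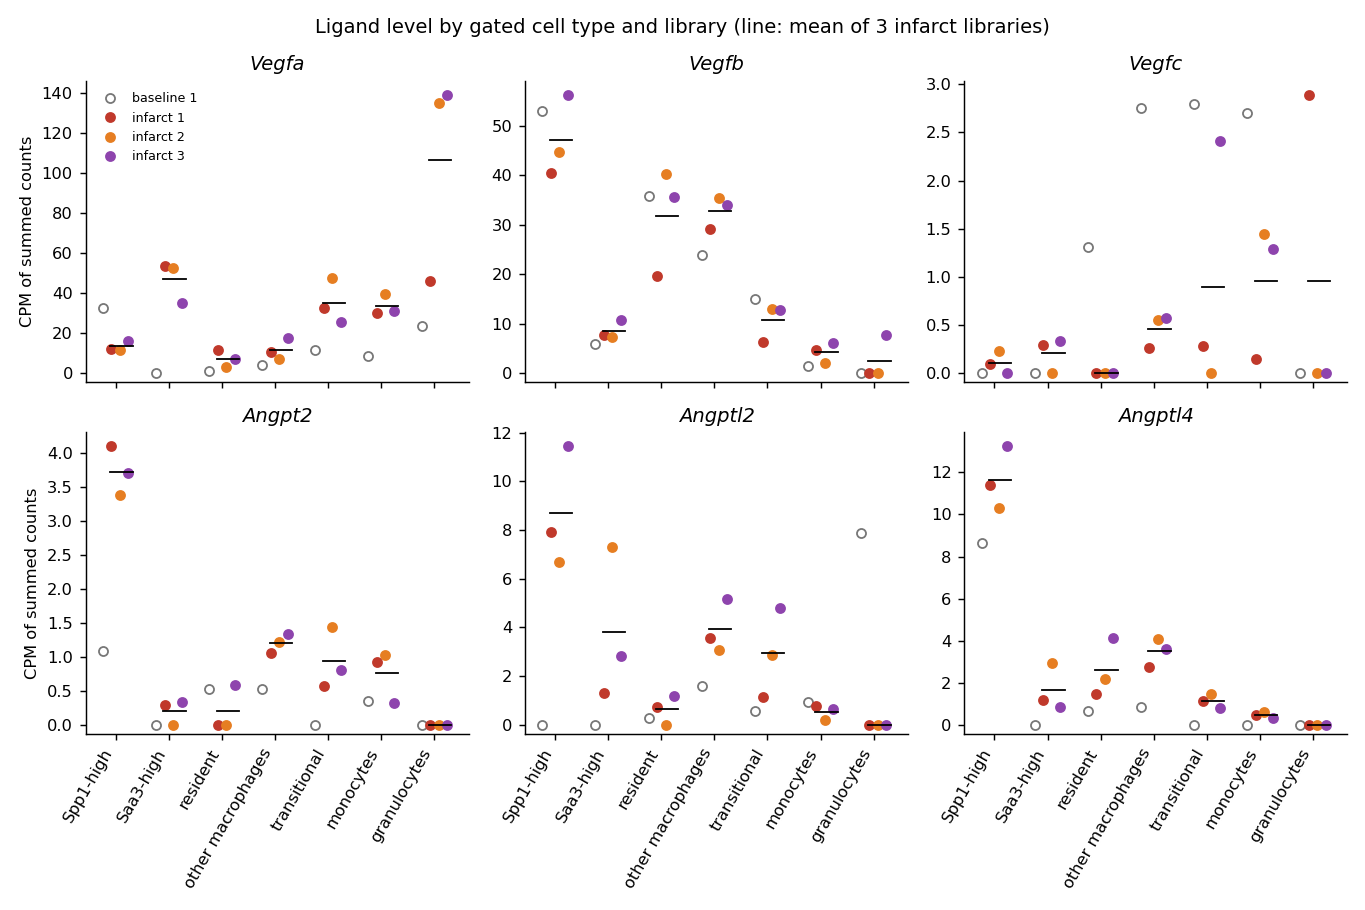
CPM of 6 ligands (linear y axes, one scale per gene) in each gated type; filled points are the 3 infarct libraries, open points the baseline library, and lines the infarct mean. Vegfa is high in granulocytes, Saa3-high macrophages, transitional cells and monocytes, whereas Vegfb, Angpt2, Angptl2 and Angptl4 are highest in Spp1-high macrophages of the infarcts.

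Saa3-high and Spp1-high macrophages were then set against each other directly, in the same 3 hearts. Of the 6 ligands with enough counts to be tested, 5 differed, 1 higher in Saa3-high cells and 4 lower. Of the 10963 genes tested, 20.9% passed, 10.8% higher and 10.1% lower. Vegfa was higher in Saa3-high cells by 1.55 ± 0.22 on the log2 scale (adjusted p = 0.001). Vegfb was lower (log2 fold change -2.58 ± 0.15, adjusted p = 1e-05), as were Angpt2 (-3.83 ± 0.52, adjusted p = 0.00083) and Angptl4 (-3.56 ± 0.34, adjusted p = 0.00016). These 4 calls held under every alternative that tested them. Angptl2 was also lower (-2.05 ± 0.41, adjusted p = 0.0059), but infarct replicate 2, with 73 Saa3-high cells and 5 UMIs of Angptl2, had 7.31 CPM in Saa3-high cells against 6.68 CPM in Spp1-high cells, and the difference did not pass when infarct replicate 3 was left out (adjusted p = 0.066). Angptl6 did not differ past the threshold (-0.19 ± 0.39, adjusted p = 0.82). Vegfc and Pgf had too few UMIs to be tested.

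**Figure D3:**
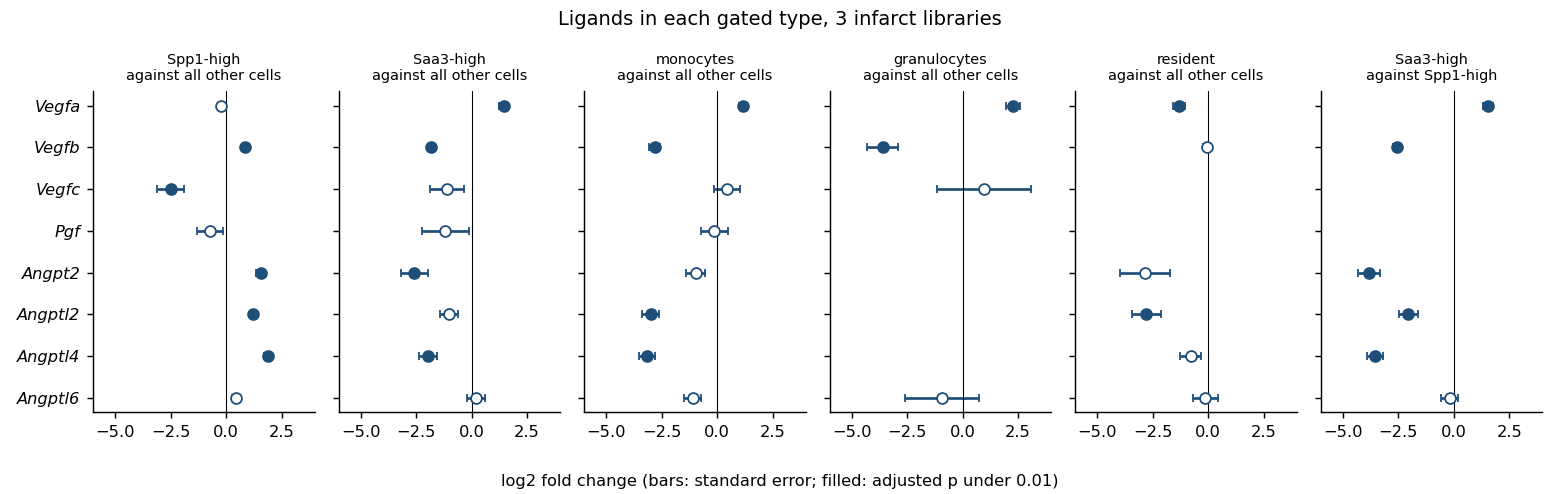
Log2 fold change of each ligand (x axis) in the 6 comparisons within the 3 infarct libraries; bars are standard errors, filled points have an adjusted p under 0.01, and ligands without a UMI on a side or not tested are left out. Vegfa lies to the right in Saa3-high cells, monocytes and granulocytes, Vegfb to the left in the same gates.

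Since a gate has an edge, the ligands were also followed along single genes in all infarct macrophages, as a description without a test. From macrophages with no Spp1 UMI to those with at least 50 Spp1 UMIs per 10000, mean Angptl4 went from 2.34 to 11.4 CPM, Angptl2 from 2.22 to 12.6 CPM and Angpt2 from 1.00 to 6.11 CPM. Vegfb went from 26.3 to 43.3 CPM along the same 5 bins, with no common direction for Vegfa, which went from 17.8 to 12.6 CPM in infarct replicate 1, from 6.61 to 15.9 CPM in replicate 2 and from 17.9 to 19.9 CPM in replicate 3. Along Arg1, which encodes the enzyme arginase-1 and is a gene of the Saa3-high gate, Vegfa went from 8.92, 7.15 and 14.2 CPM in macrophages without an Arg1 UMI to 82.9, 189 and 69.2 CPM in those with at least 50 per 10000, in infarct replicates 1, 2 and 3. The upper bin of replicate 2 held 31 cells with 63 Vegfa UMIs. Vegfb went from a mean of 35.1 to 9.37 CPM along Arg1. Along Saa3 itself, Vegfa went from 13.3 ± 4.23 to 31.1 ± 24.1 CPM, a spread between libraries that is larger than the step.

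**Figure D4:**
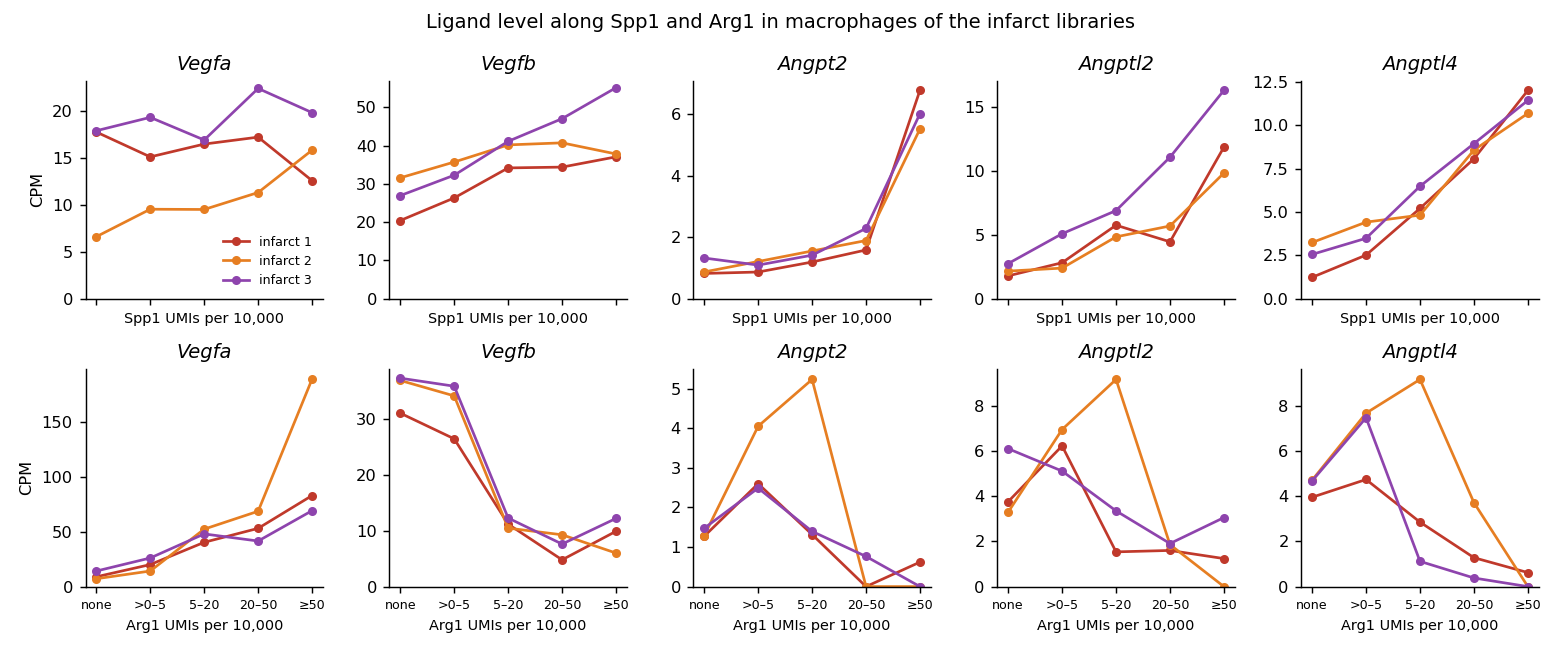
CPM of 5 ligands (y axes from 0) in infarct macrophages binned by their Spp1 (top) or Arg1 (bottom) UMIs per 10000; each line is an infarct library. Angpt2, Angptl2, Angptl4 and Vegfb are highest on average in the last Spp1 bin, and Vegfa lies between 69.2 and 189 CPM in the last Arg1 bin.

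The type with the highest level was not always the main source. Other macrophages held 33.9%, 37.4% and 58.8% of all Vegfa UMIs in infarct replicates 1, 2 and 3, while Saa3-high cells held 23.3%, 2.88% and 12.5%. Infarct cells in no gate had Vegfa at 29.9 ± 12.0 CPM and held a mean of 13.4% of its UMIs (SD 7.88). Monocytes held a mean of 11.2% (SD 4.91). Granulocytes held 1.02%, 1.20% and 2.15%. Spp1-high macrophages held 36.6%, 27.8% and 33.2% of Angptl4 UMIs, 34.9%, 25.6% and 23.2% of those of Angpt2, and 23.5%, 23.5% and 22.0% of those of Angptl2, from 12.1%, 13.6% and 11.1% of all UMIs counted. At baseline, resident macrophages held 55.7% of Vegfb UMIs and 49.5% of those of Angptl6, from 36.0% of all UMIs.

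**Figure D5:**
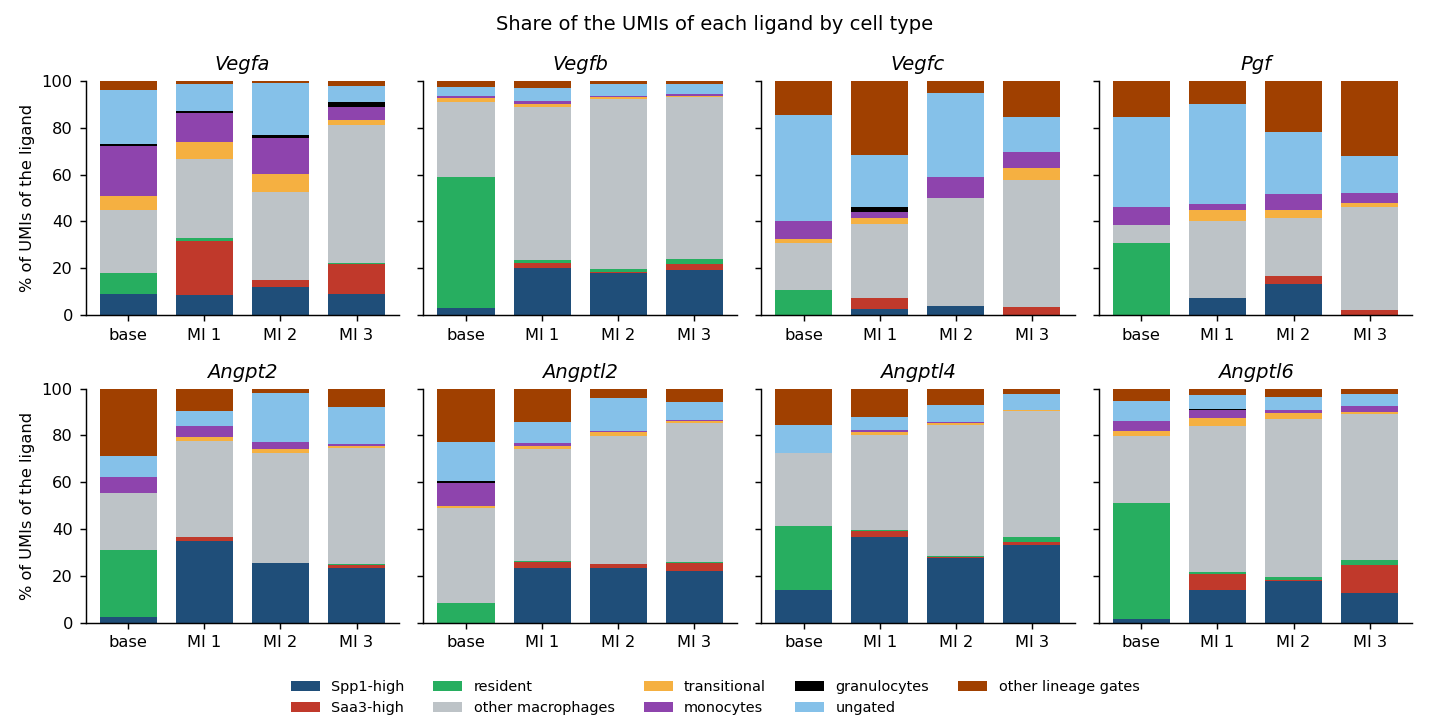
Share of each ligand's UMIs (percent, y axis) by gated type in the baseline library (base) and the 3 infarct libraries (MI 1 to MI 3); other lineage gates are dendritic, B, endothelial, fibroblast and rarer cells. Vegfb of resident macrophages makes up 55.7% at baseline and at most 2.18% in an infarct, and Spp1-high macrophages hold 27.8% to 36.6% of Angptl4 in the infarcts.

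The infarct and baseline libraries were also compared within gates, again without a test. Vegfa was at 1.23 CPM in baseline resident macrophages (interval 0.832 to 1.76, 30 UMIs) and at 7.35 ± 4.21 CPM in infarct ones. It was at 8.45 CPM in baseline monocytes (interval 6.61 to 10.6) against 33.7 ± 5.17 CPM, and at 4.31 CPM in other macrophages (interval 3.47 to 5.30) against 11.9 ± 5.21 CPM. In these 3 gates all infarct libraries were above baseline. The resident gate did not hold like cells in both groups. Its own markers summed to 5237 CPM at baseline and 2559 CPM in the infarcts. In the same gate the Saa3-high markers summed to 9.16 and 633 CPM, and the Spp1-high markers to 277 and 972 CPM. The part of this in the rise of Vegfa was not tested. In Spp1-high macrophages Vegfa was at 32.4 CPM at baseline, from 30 UMIs in 11 of 56 cells, and at 13.4 ± 2.50 CPM in the infarcts. Vegfb was at 35.9 CPM in baseline resident macrophages (interval 33.6 to 38.4) and at 31.9 ± 10.8 CPM in infarct ones, within the spread between the infarct libraries. Angptl4 was at 0.853 CPM in other macrophages at baseline (interval 0.506 to 1.35) and at 3.49 ± 0.674 CPM in the infarcts.

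Vegfc was lower in the infarcts in most gates. Other macrophages held 2.75 CPM at baseline (interval 2.09 to 3.55) and 0.465 ± 0.172 CPM in the infarcts, and monocytes held 2.70 CPM (interval 1.71 to 4.05) and 0.963 ± 0.705 CPM. Resident macrophages held 32 UMIs at baseline, or 1.31 CPM (interval 0.899 to 1.86), and none in the infarcts, which allows up to 0.755 CPM by the limit of 3 counts over the group. Of all baseline Vegfc UMIs, 45.1% lay in 1317 cells that met no gate, at 17.0 CPM (interval 14.3 to 20.2), whose leading genes were Cd300e, Ear2, Ace, Pglyrp1, Eno3 and Treml4. In infarct cells that met no gate, Vegfc was at 2.45 ± 1.72 CPM, and their leading genes were others (Ctsk, Mmp9, Klrd1). Within the infarcts, Spp1-high macrophages had 4 UMIs of Vegfc (log2 fold change -2.51 ± 0.60, adjusted p = 0.0091), a call kept under 5 of 10 alternatives.

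Cells of other lineages carried some of these ligands at far higher levels. In the infarct libraries, 33 endothelial cells had Pgf at 65.8 CPM (exact 95% Poisson interval 37.6 to 107, pooled over libraries), Angpt2 at 57.5 CPM (interval 31.5 to 96.6) and Vegfc at 41.1 CPM (interval 19.7 to 75.6). The Pgf UMIs came from infarct replicates 2 and 3 (3 and 13 UMIs). In 99 infarct fibroblasts, Angptl2 was at 91.4, 76.8 and 102 CPM in infarct replicates 1, 2 and 3. Angptl4 was at 74.2, 318 and 13.6 CPM in the same cells, from 39, 29 and 2 UMIs, and so varied widely between hearts. At baseline, 167 endothelial cells had Vegfc at 71.3 CPM (interval 50.4 to 97.8), and Pgf at 0 UMIs, which allows up to 5.63 CPM by the limit of 3 counts. All cells of the endothelial, fibroblast, B cell, dendritic cell and other lineage gates together held 10%, 21.7% and 32% of the Pgf UMIs of the 3 infarcts, and 12.3%, 6.99% and 2.13% of those of Angptl4. The 6 fibroblast markers summed to 251 CPM in infarct Spp1-high macrophages, with none at 0, against 85.9 CPM in Saa3-high macrophages and 141 CPM in monocytes. Of the 6, 2, 1 and 1 were above 10 CPM in these gates. At baseline the sums were 169, 23.8 and 86.1 CPM, with 1 marker above 10 CPM in each. The 6 endothelial markers, which include Fabp4, summed to 79.1, 43.8 and 23.8 CPM in the same infarct gates, with 1 of the 6 above 10 CPM in each. Fabp4 alone had a mean of 78.6 CPM in Spp1-high and 30.0 CPM in Saa3-high macrophages. In resident macrophages, transitional cells, other macrophages, cells in no gate and granulocytes the fibroblast markers summed to 162, 198, 215, 240 and 296 CPM, and the endothelial markers to 19.6, 16.9, 14.5, 49.5 and 27.9 CPM. The part of such RNA in the values of Angpt2, Angptl2 and Angptl4 was not tested.

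Shares of cells with a UMI were set beside those of B cells and dendritic cells. Infarct B cells carried all 7 macrophage markers, at a summed 9525 CPM, close to the 9552 CPM of Saa3-high macrophages, and so gave no background level for these genes. Their values are given as levels only, and no reading of the other gates rests on them. In dendritic cells the same markers summed to 1767 CPM. In cells thinned to 2000 UMIs, 8.77% of Spp1-high cells, 1.52% of Saa3-high cells and 0.84% of monocytes had a Vegfb UMI, pooled over the 3 hearts, against 5.76% of 139 B cells (exact 95% binomial interval 2.52 to 11.03) and 1.76% of 455 dendritic cells (interval 0.762 to 3.43). For Vegfa the share was 12.8% of granulocytes, 6.92% of Saa3-high cells, 5.43% of monocytes and 2.58% of Spp1-high cells, against 2.16% of B cells (interval 0.447 to 6.18) and 0.879% of dendritic cells (interval 0.24 to 2.24). For Angptl4 it was 1.98% of Spp1-high cells and 0.719% of B cells (interval 0.0182 to 3.94). On the CPM scale, infarct B cells held Angptl4 at 3.17 CPM (interval 0.863 to 8.11). The 475 dendritic cells held no Angptl4 UMI, and Spp1-high cells held 10.3 to 13.2 CPM. B cells held Angptl2 at 5.54 CPM (interval 2.23 to 11.4) and Angpt2 at 1.58 CPM (interval 0.192 to 5.72), and these intervals took in the mean levels of Spp1-high cells. In dendritic cells Angptl2 was at 2.51 CPM (interval 1.252 to 4.49) and Angpt2 at 0.228 CPM (interval 0.00577 to 1.27), both below every Spp1-high library. Vegfb was at 19.0 CPM in B cells (interval 12.2 to 28.3) and at 13.0 CPM in dendritic cells (interval 9.85 to 16.8). The part of free RNA in these levels was not tested. Median depths were 8939 UMIs for B cells, 9278 UMIs for dendritic cells and between 10758 and 11379.5 UMIs for Spp1-high cells by library, but between 2535 and 2901 UMIs for granulocytes.

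Ligands were seldom found together. In macrophages, monocytes and granulocytes thinned to 2000 UMIs, no ligand UMI was found in 90.7%, 89.8% and 88.6% of infarct cells (replicates 1, 2 and 3), and 19, 28 and 21 cells had UMIs of 2 ligands, never more. Over all 28 pairs there were 68 co-detections against 85.5 from independence within library and gate, a ratio of 0.796, with 0.859, 0.998 and 0.595 in the 3 libraries. Vegfa and Vegfb were found together in 25 cells against 32.4. Without thinning the ratio was 1.22, and at 4000 UMIs it was 0.969. These ratios moved to either side of 1 with the depth and were not tested.

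Over 26 sums of a gate and a library with at least 50 cells, the genes with the level most like that of Vegfa (Pearson r of log2(CPM + 1), a description) were Prdx6, an antioxidant enzyme (r = 0.89), Clec4e, a pattern-recognition receptor (r = 0.85), and Chic2 (r = 0.85). For Vegfb they were the stress cytokine Gdf15 (r = 0.94), the G protein subunit Gna12 (r = 0.94) and Arhgap22 (r = 0.94). The other ligands were under 5 CPM on average. Among the ligands, Angpt2 and Angptl4 (r = 0.77) and Vegfb and Angptl4 (r = 0.75) were most alike, and Vegfa and Vegfb had r = -0.49. Sums from the same library share its hearts and depth.

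Genes of pathways around the ligands also differed between the macrophage gates. Of 16 hypoxia response genes, 11 were higher and 0 lower in Saa3-high macrophages, with a median log2 fold change of 1.13 beside -0.06 over all genes. Of all genes tested, 9.55% were higher and 8.12% lower in that gate, 12.2% higher and 12.5% lower in Spp1-high macrophages, 13.9% higher and 14.9% lower in monocytes, and 10.8% higher and 10.1% lower in Saa3-high than in Spp1-high cells. They included Egln3, the oxygen-sensing prolyl hydroxylase (2.22 ± 0.19, adjusted p = 1.4e-05), Ankrd37 (2.05 ± 0.14, adjusted p = 2.8e-06) and Pdk1, which curbs entry of pyruvate into mitochondria (2.00 ± 0.13, adjusted p = 1.9e-06). In monocytes 8 were higher and 1, Epas1, was lower, while in Spp1-high macrophages 2 were higher (Epas1 and Ndrg1), 1 lower (Hk2) and 13 did not pass. None of the 16 passed in granulocytes, the gate with the highest Vegfa, where 4.25% of all genes were higher and 7.24% lower. Their median log2 fold change in granulocytes was -0.10, beside -0.29 over all genes. A link between the hypoxia genes and Vegfa was not tested. Of the 9 PPAR targets and regulators tested, 8 were higher in Spp1-high macrophages. They included the fatty acid transporter Cd36 (1.63 ± 0.05, adjusted p = 2.3e-08) and the lipid carrier Fabp4 (1.84 ± 0.15, adjusted p = 1.6e-05), and 1 of the 8, Fabp5, took part in the gate, while Fabp4 is also a gate gene of endothelial cells. Cd36 was higher in Saa3-high macrophages as well (1.98 ± 0.15, adjusted p = 4.9e-06). In monocytes 0 of these 9 were higher and 5 lower. Directly compared with Spp1-high cells, Saa3-high cells had 8 of 15 hypoxia genes higher and 6 of 9 PPAR genes lower.

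Receptors for these ligands were also divided. The VEGF co-receptor Nrp2 was higher in Spp1-high macrophages (128 against 63.8 CPM, log2 fold change 1.12 ± 0.09, adjusted p = 1.1e-05), as were Kdr and Nrp1. The receptor gene Flt1 was lower in the same cells (-1.43 ± 0.20, adjusted p = 0.0004). In monocytes Flt1 was higher (14.5 against 2.94 CPM, log2 fold change 2.46 ± 0.28, adjusted p = 0.0003), while Nrp1 and Nrp2 were lower. Of 14 other angiogenic factors tested, 6 were higher and 3 lower in Spp1-high macrophages, beside 12.2% and 12.5% of all genes. In Saa3-high macrophages 3 were higher, among them Emilin2 (643 against 98.4 CPM, 2.60 ± 0.21, adjusted p = 7.2e-06) and Hbegf (2.01 ± 0.36, adjusted p = 0.0018), and 6 lower, beside 9.55% and 8.12% of all genes. Of 8 angiogenesis inhibitors, 7 were lower and none higher in Spp1-high macrophages, such as Serpinf1 (-2.17 ± 0.18, adjusted p = 1.7e-05). Low levels of this list were not particular to that gate. Its median log2 fold change was -1.60 in Spp1-high macrophages, -2.48 in Saa3-high macrophages, -3.16 in monocytes, -2.92 in granulocytes and -1.13 in resident macrophages. In Saa3-high macrophages 4 were lower and 1, Thbs1, was higher. Thbs1, which encodes thrombospondin-1, was 1183 against 155 CPM in the direct comparison with Spp1-high cells (2.68 ± 0.23, adjusted p = 9.1e-05). In that comparison 4 of the inhibitors could be tested, and Thbs1 alone passed. Of the 7 remaining ligands of the families, at most 3 had enough counts to be tested in a gate and 0 passed.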

How the data were processed

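Sorted cardiac cells were profiled by droplet-based single-cell RNA sequencing (3' chemistry). The authors deposited raw UMI counts for every gene and barcode, obtained with Cell Ranger and mm10 (3.1.0 in the matrix headers, 3.0.1 in the submitters' processing notes), keeping the barcodes called as cells. The remaining steps were done here. The limits the study states for cells were applied (500 to 40000 UMIs, over 200 genes). They left 10238 of 10314 baseline barcodes and 10396 of 10424, 10782 of 10804 and 10117 of 10144 infarct barcodes, more cells than the study analysed, so the cell sets differ. Depth per library is given with the results and limits all ligands under 5 CPM to few UMIs. Intervals are 95% and cover counting error only. The ligands and gene lists were chosen with earlier results of these data known, and gate thresholds were set after marker distributions had been seen.

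A gate required at least 2 markers of its list and a summed level per 10000 UMIs outside mitochondrial genes of 20 (granulocytes, monocytes, Saa3-high), 50 (Spp1-high) or 10 (resident, dendritic, T and NK cells), with 20 for other lineages and 10 for C1q. Cells meeting both the Saa3-high and Spp1-high lists stayed without a gate. Counts were summed per infarct library inside a gate and over all its other cells, and tested with edgeR 4.0.16 (R 4.3.3) quasi-likelihood, TMM, filterByExpr and the library as a block, since both sums come from 1 heart. A gene passed at an adjusted p under 0.01 (Benjamini-Hochberg, every tested gene). Gates under 20 cells in an infarct library were not to be tested, and the smallest had 42. Each test has 2 residual degrees of freedom, and edgeR moderates a gene's spread towards that of all genes, with a median prior of 6.06 to 20.6 degrees of freedom and an infinite one in granulocytes, so p-values rest mostly on the spread shared by all genes, and in granulocytes wholly. The script was tested on simulated data. All 8 ligands are named, with at most 3 genes per list and comparison, those past the threshold with the largest changes, and the 3 genes most like a ligand of at least 5 CPM, among genes of at least 10 CPM in no gate list. Genes that name a gate are not results.

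Alternatives were DESeq2 size factors and the DESeq2 1.42.0 Wald test, no low-count filter, no block, each infarct library left out, doubled gate thresholds, thinning to 2000 or 4000 UMIs, other comparators, and doublets removed. Scrublet (scanpy 1.11.5) called 2.22% of baseline cells and 0 cells in infarct replicates 1 and 2 by its automatic threshold, so the 819 to 930 cells per library with the highest scores were removed instead. Intervals used scipy 1.17.1 and plots matplotlib 3.10.9.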

Additional observations from a re-analysis of the deposited data

Results flagged for a closer look

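For 2 ligands the change from baseline to infarct went opposite ways in 2 gates, with every infarct library on 1 side of baseline in each. The difference between gates was not tested. The log2 ratio of Vegfa was 2.58 in resident macrophages and -1.27 in Spp1-high macrophages, where the baseline value came from 30 UMIs in 11 of 56 cells. As given above, cells of the resident gate differed in their markers between baseline and infarct. The log2 ratio of Vegfb was 1.503 in monocytes, from 13 baseline UMIs, and -0.49 in transitional cells, from 27 baseline UMIs. Of the 156 baseline transitional cells, 66.0% were among the cells with the highest doublet scores, and their part in the difference was not tested. No test for an outlying library was run on groups of 3.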

How the results depend on the processing

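Thinning cells to 2000 UMIs left 3 ligands past the threshold in Spp1-high macrophages, 2 in Saa3-high macrophages and 0 in resident macrophages, and with fewer counts 5 or 6 ligands could be tested. Of all genes, 16.8%, 20.7% and 6.08% passed in these gates under thinning. The DESeq2 Wald test left 1 ligand in granulocytes and 1 in resident macrophages, where it tested 4 and 5 ligands, beside 8.72% and 7.93% of all genes. With no replicate block, 0 of 8 passed in resident macrophages, beside 2.25% of all genes. In the other comparisons the block changed the number of ligand calls by no more than 1.5 times, which does not hold for the calls over all genes given below. With each infarct library left out in turn, the number of ligand calls ranged from 2 to 3 in Saa3-high macrophages and from 0 to 2 in resident macrophages, both lowest without infarct replicate 3. The share of all genes that passed ranged from 11.3% to 23.5% in Saa3-high macrophages and from 6.09% to 13.6% in resident macrophages. Restricting the infarct and baseline comparison to ligands of at least 10 CPM left 2 ligands, both above baseline in all 3 libraries. Under TMM scaling the log2 ratio of Angptl6 turned from -0.27 to 0.0099, with 2 of 3 infarct libraries above baseline. The co-detection ratio of 0.796 was 1.22 without thinning. Of the single-ligand tests recomputed, 447 stayed on the same side of the threshold, 28 no longer passed and 1 newly passed (Angptl4 in resident macrophages with doubled gate thresholds, adjusted p = 0.0016). Of the ratios of infarct to baseline, 46 moved by less than the spread between libraries and 19 by more. Over all genes, the number past the threshold in Spp1-high macrophages was 3274, but 1408 with no replicate block, 1888 thinned and 2110 without infarct replicate 3. It was 2328 in Saa3-high macrophages (1519 and 1528 without infarct replicates 2 and 3), 3807 in monocytes (2229 without infarct replicate 2) and 1488 in granulocytes (910 by DESeq2, 967 and 712 without infarct replicates 2 and 3). It was 1206 in resident macrophages (296 with no replicate block, 679 thinned, 1812 and 804 without infarct replicates 2 and 3) and 2295 between Saa3-high and Spp1-high macrophages (1150 without infarct replicate 3). Depth limits Vegfc, Pgf, Angpt2 and all values in granulocytes and resident macrophages most.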
